A study of Homo sapiens with 8 samples.

Results

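Integrins and laminins were described across 8 two-colour arrays of 3 human cancer cell lines. The set held 35 genes, chosen by gene name as 17 integrin alpha subunits, 8 integrin beta subunits and 10 laminin chains, among 43317 genes with a probe on the array. All 35 had at least 1 probe. PC3 is a prostate cancer line from a bone metastasis, FaDu a hypopharyngeal squamous cell carcinoma line and PANC-1 a pancreatic cancer line. In PC3, the transfected miRNA was either arm of miR-150 (miR-150-5p, miR-150-3p) or the passenger strand miR-99a-3p or miR-100-3p. In FaDu it was miR-99a-3p or miR-99a-5p. PANC-1 cells received either of 2 siRNAs against FOXQ1, called si-FOXQ1-1 and si-FOXQ1-2. The Cy5 channel held the transfected cells, and the Cy3 channel held mock cells of the same line, which the labels describe as not transfected. Each condition had 1 array, no dye swap was made, and no array with a control oligonucleotide was analysed here. A ratio therefore describes 1 pair of RNA samples, and effects of the dye or of transfection itself cannot be told apart from that of the miRNA or siRNA.

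Integrins are cell surface receptors made of 1 alpha and 1 beta subunit that bind the extracellular matrix or other cells. Laminins are trimers of 1 alpha, 1 beta and 1 gamma chain and form the sheet of the basement membrane on which epithelial cells rest. In stratified and glandular epithelia, the laminin with the LAMA3 and LAMB3 chains is held by the integrin of the ITGA6 and ITGB4 subunits, which anchors keratin filaments in the hemidesmosome.

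The transfected miRNAs are shown because they define the conditions. The mature sequences found in RefSeq (GRCh38.p14) were those of miR-99a-5p (chr21:16539101-16539122, plus strand), miR-99a-3p (chr21:16539138-16539159, plus strand) and miR-100-3p (chr11:122152240-122152261, minus strand), printed 5′ to 3′ with the seed, bases 2 to 8, in capitals. miR-150-5p and miR-150-3p are given by name.
miR-99a-5p: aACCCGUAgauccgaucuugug
miR-99a-3p: cAAGCUCGcuucuaugggucug
miR-100-3p: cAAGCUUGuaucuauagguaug
The 2 passenger strands, miR-99a-3p and miR-100-3p, differed at 5 of 22 bases, counted from 1 at the 5′ end. Of these, 1 lay in the seed (C7U, the base of miR-99a-3p first) and the others were C9U, U10A, G16A and C20A. The seed of miR-99a-5p differed from that of miR-99a-3p at 5 of 7 bases.

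A log2 ratio below is the deposited log10 ratio of Cy5 over Cy3 turned to the log2 scale, with the error that the scanner software gave for the spot. That error covers the measurement on 1 array and not the spread between cultures. A gene was read at its brightest probe, and counted where both channels were well above background. Of the 35 genes, 17 were above background in both channels of all 8 arrays, and 5 (ITGA4, ITGA8, ITGA11, ITGAM and LAMA1) in both channels of none. ITGA4 and ITGA8 were above background in neither channel of any array. Between 19 and 26 of the 35 genes were measured in both channels per array.

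The mock channels came in pairs. Over 10447 bright genes, the log2 difference between the mock channels of both FaDu arrays, both PANC-1 arrays, the miR-150-5p and miR-150-3p arrays, and the miR-99a-3p and miR-100-3p arrays had a robust SD of 0.0674 to 0.0814. Spots of 1 array alone predict 0.0701 to 0.0848, while mock channels of PC3 from different pairs differed with a robust SD of 0.169 to 0.175 and those of different lines with 0.759 to 1.04. Channels of a pair thus differed by no more than spots of 1 array, and were counted as 1 sample, which left 1 mock preparation of FaDu, 2 of PC3 and 1 of PANC-1. The arrays of a pair are treated below as sharing their control, which the labels do not state.

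Markers were read in the mock channels against the labelled lines. TP63, KRT5, KRT14 and DSG3, which mark squamous epithelium, were above background in FaDu and in neither other line. HOXB13 of the prostate had a scaled Cy3 signal of 38490 and 46132 in the PC3 preparations, 133 in FaDu and 487 in PANC-1, while KLK3 was not above background in PC3. Of the pancreatic duct markers, KRT7 and SOX9 were above background in PANC-1 and ONECUT1 was not. The PC3 preparations differed in CDH1, at 668 and 198. FOXQ1, the target of the siRNAs, had a log2 ratio of -2.16 ± 0.29 with si-FOXQ1-1 and -2.12 ± 0.28 with si-FOXQ1-2. Its Cy3 and Cy5 signals were 4887 and 1092 on the first array and 4557 and 1046 on the second.

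The mock cells of the 3 lines carried different laminin chains. LAMB3 was the extreme case, with LAMA3 also near background in PANC-1, and LAMA4 and LAMC3 dim or not above background in FaDu at their brightest probes. Levels are Cy3 signals scaled between arrays by their 75th percentile, given per preparation and compared for 1 gene at a time, since probes differ in brightness. Differences between lines were tested with limma on the log2 scale over 21516 genes, with Benjamini-Hochberg adjustment, and called at an adjusted p below 0.05 and at least 2-fold. The spread in this test comes from the 2 PC3 preparations, so the single FaDu and PANC-1 preparations are assumed to vary as PC3 did, and the labels do not say whether preparations are separate cultures.

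LAMB3, a beta chain of epithelial laminin, had a signal of 62108 in FaDu, 4981 and 4663 in the PC3 preparations and 86.2 in PANC-1. Both PC3 preparations lay between the single preparations of FaDu and PANC-1. PANC-1 was lower than FaDu by 721-fold (log2 difference -9.49 ± 0.14 SE, limma adjusted p = 1.88e-09), and PC3 was lower than FaDu by 12.9-fold (-3.69 ± 0.12, adjusted p = 3.07e-08). LAMA3, the alpha chain of the same trimer, was at 1499 in FaDu, 3508 and 3896 in PC3 and 39.7 in PANC-1. Here PC3 and not FaDu was the highest line, with 2.47-fold more than FaDu (adjusted p = 4.01e-05) and 93.2-fold more than PANC-1 (adjusted p = 3.89e-09). At its second, dimmer probe PC3 was also the highest, at 533 to 668 per array, but FaDu, at 42.2 and 54.2, lay near PANC-1, at 31.5 on 1 array and not above background on the other. ITGB4, the beta subunit of their hemidesmosome receptor, had 15060 in FaDu, 11986 and 9347 in PC3 and 2334 in PANC-1, which was 6.45-fold lower than FaDu (adjusted p = 2.76e-06). ITGA6, its partner, was highest in PC3, at 2894 and 3248, against 1120 in FaDu and 1505 in PANC-1.

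The promoters of LAMA3 and LAMB3 are printed because both genes were low in the same line. Of the 35 genes, 25 had a promoter window in the RefSeq table (250 bases before to 50 after a start site, GRCh38.p14), with 32 windows in all. The letters TGACTCA and TGAGTCA, which are each other's reverse complement and the textbook site of AP-1 factors, were searched in these windows, so that both strands were covered. They were in 3 of the 32 windows, those of LAMA3, LAMB3 and ITGA5, and in 4.95% of all 35116 windows. LAMA3 held both, starting 125 and 69 bases before the start site, and LAMB3 held TGACTCA starting 67 bases before it. Capitals mark the matches in LAMA3 (chr18:23872770-23873069, plus strand) and LAMB3 (chr1:209651325-209651624, minus strand).
LAMA3: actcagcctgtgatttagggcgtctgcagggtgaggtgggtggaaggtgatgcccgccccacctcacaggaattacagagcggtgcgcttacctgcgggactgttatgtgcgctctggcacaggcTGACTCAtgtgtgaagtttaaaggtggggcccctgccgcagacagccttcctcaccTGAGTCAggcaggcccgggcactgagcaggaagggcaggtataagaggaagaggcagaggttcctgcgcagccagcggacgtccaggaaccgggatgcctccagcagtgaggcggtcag
LAMB3: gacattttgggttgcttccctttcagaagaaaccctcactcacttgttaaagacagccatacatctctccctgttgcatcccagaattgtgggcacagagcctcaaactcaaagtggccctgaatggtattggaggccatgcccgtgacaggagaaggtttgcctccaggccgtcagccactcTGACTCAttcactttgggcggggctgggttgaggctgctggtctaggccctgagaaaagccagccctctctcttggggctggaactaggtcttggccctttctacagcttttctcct
A match of letters is a description of the sequence, and binding was not measured.

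Other laminin chains set FaDu apart. At its brightest probe, LAMA4 had 669 and 473 in the PC3 preparations and 762 in PANC-1, and was not above background in FaDu. PC3 was at least 23.8-fold and PANC-1 at least 32.2-fold higher than FaDu. For FaDu, these bounds take the lowest signal above background, or the probe's own where higher. LAMA4 was called in both comparisons, but entered the test through PC3 and PANC-1 alone and so had to differ from FaDu. Both coding probes of LAMA4 were likewise above background in PC3 and PANC-1 and not in FaDu. The dim probe at its 3′ end gave another order, at 34.6 and 45.7 on the FaDu arrays, 13.7 to 38.8 in PC3 and not above background in PANC-1, so that the order of the lines depends on the probe. As a mean over its probes, LAMA4 was still called, at log2 differences of 3.05 and 3.43 in place of 6.32 and 6.76. LAMC3, a gamma chain, was at 29.1 in FaDu, 283 and 264 in PC3 and 591 in PANC-1. FaDu and PANC-1 differed 20.4-fold (limma adjusted p = 3.41e-07). As a mean over the probes of LAMC3, the log2 difference of PC3 minus FaDu was 0.95 in place of 3.23 and was not called. LAMB1 was 3.01-fold higher in PC3 than in FaDu (6089 and 6106 against 2023, adjusted p = 3.29e-06), and PANC-1, at 5863, was close to PC3. The dimmer LAMB1 probe did not show this, at 89.6 and 93.4 on the FaDu arrays and 91.8 to 103 in PC3. LAMC1, the gamma chain of most laminins, was lowest in PC3, at 630 and 723 against 1473 in FaDu and 1702 in PANC-1. LAMA1 and LAMA2, alpha chains of embryonic tissue and muscle, were dim. LAMA1 was above background in FaDu alone, at 44.7, at least 2.86-fold above PC3 and at least 2.31-fold above PANC-1. The second probe of LAMA1 was above background in no mock channel, at 5.91 and 6.24 on the FaDu arrays. LAMA2 had 80.2 in FaDu, 22.0 and 22.4 in PC3, and was not above background in PANC-1, which was at least 4.15-fold below FaDu. LAMB2 differed by more than 2-fold only between PANC-1, at 4146, and PC3, at 7837 and 9365 (2.07-fold, adjusted p = 0.000175).

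LAMA5, the widely expressed laminin alpha chain of adult epithelia, had 2 probes. The brightest was annotated to an Ensembl transcript and ranked 171 of 58201 probes by signal. The other, of the RefSeq transcript, is shown because its values are given beside those of the brightest (hg19 chr20:60885302-60885361, minus strand).
LAMA5 RefSeq probe: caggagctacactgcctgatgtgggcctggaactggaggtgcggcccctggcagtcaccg
At the RefSeq probe, the scaled mock signals of the 8 arrays lay between 1199 and 1773, and the log2 ratios lay between -0.73 (si-FOXQ1-1) and 0.34 (PC3 miR-99a-3p). At the brightest probe they lay between -0.36 and 0.22.

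Among integrin beta subunits, ITGB1, which pairs with most alpha subunits, was level, at 2345 in FaDu, 2268 and 2358 in PC3 and 2041 in PANC-1, and no pair of lines passed the test. ITGB5, a partner of ITGAV, was 15.0-fold higher in PANC-1 (8363) than in FaDu (559), and 5.88-fold higher than in PC3 (1370 and 1477), with adjusted p = 1.08e-07 and 4.63e-07. ITGAV itself, the vitronectin receptor alpha subunit, followed that order only in part, at 5202 in PANC-1, 1443 in FaDu and 831 and 1015 in PC3. ITGB8, another partner of ITGAV, was instead highest in PC3, at 351 and 326, against 40.1 in FaDu and 54.1 in PANC-1 (8.43-fold and 6.25-fold). ITGB6, the epithelial partner, was above background in FaDu alone, at 37.9, at least 2.42-fold above PC3. ITGB3 was 4.41-fold higher in PANC-1 (301) than in FaDu (68.2), with PC3 at 163 and 187. ITGB7 was 4.89-fold higher in FaDu (318) than in PANC-1 (65.0), and ITGB2, the beta subunit of leukocytes, was higher in PC3 (423 and 412) than in PANC-1 (104, adjusted p = 1.07e-05). ITGB2 was also called higher in PC3 than in FaDu, where it had 137. Its second probe gave the opposite order, at 124 and 179 on the FaDu arrays and not above background in PC3 or PANC-1, so that the order of FaDu and PC3 depends on the probe.

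Among alpha subunits, ITGA1, a collagen receptor, entered the test through PC3 alone and so had to differ. Its signal was 1002 and 1192 in PC3, and it was above background in neither FaDu nor PANC-1. This gave PC3 at least 46.1-fold over FaDu and at least 56.5-fold over PANC-1. ITGA2, another collagen receptor, was dim, at 62.9 in PANC-1, 23.7 and 16.9 in PC3, and not above background in FaDu. ITGA10 was at 62.7 in FaDu, 266 and 399 in PC3 and 438 in PANC-1. The first and the last were 6.98-fold apart (limma adjusted p = 3.06e-05). ITGA7, a laminin receptor best known in muscle, was 6.10-fold higher in PC3 (1309 and 1590) than in FaDu (237), and PANC-1 was at 241. ITGA5, the fibronectin receptor alpha subunit, was highest in FaDu at 1469, with 426 and 445 in PC3 and 920 in PANC-1. ITGA3, the main laminin receptor alpha subunit of epithelial cells, was between 5447 and 6430 in the 4 preparations, and no pair of lines passed the test. ITGAX was above background in FaDu alone, at 35.6, and its second probe on none of the arrays. After normexp background correction, the calls of the dim genes ITGAX, ITGB6 and LAMA1 in both comparisons with FaDu, of ITGA2 between PANC-1 and FaDu, and of LAMA2 between PANC-1 and either other line were lost, at log2 differences of -0.99 to 0.65.

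**Figure D1:**
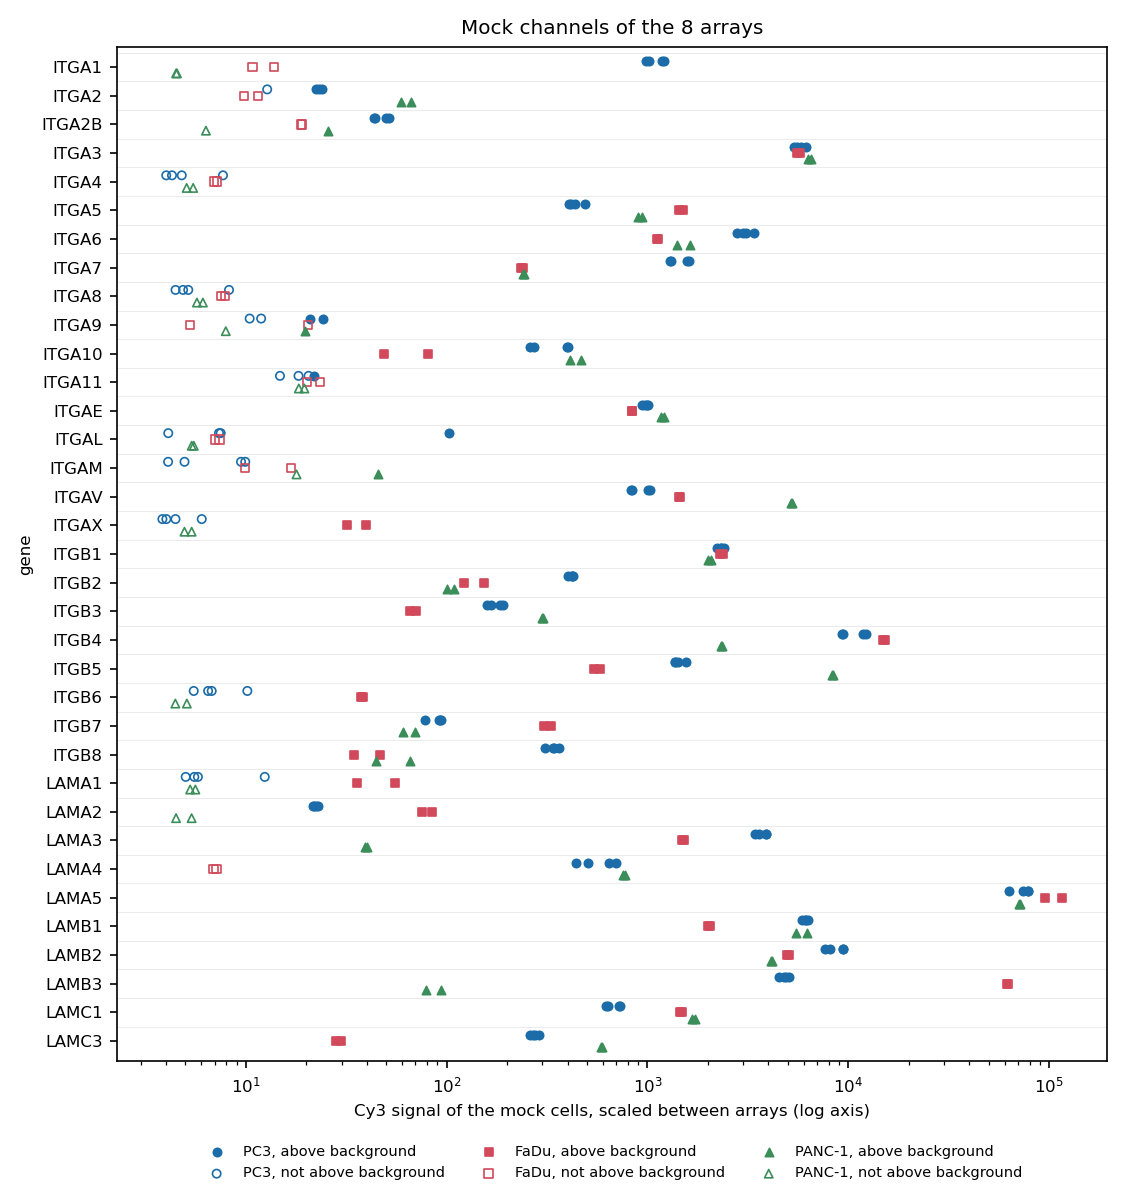
Cy3 signal of the mock cells on the 8 arrays for the 35 genes at their brightest probe (log axis, scaled between arrays by the 75th percentile), with circles for PC3 (4 arrays, 2 preparations), squares for FaDu (2 arrays, 1 preparation) and triangles for PANC-1 (2 arrays, 1 preparation). Open symbols were not above background. LAMB3 spans from 86.2 in PANC-1 to 62108 in FaDu, while the symbols of ITGA3 and ITGB1 lie close together.

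Of the 35 genes, 29 were above background on every array of at least 1 line and were tested. Between PC3 and FaDu, 13 were called higher in PC3 and 8 lower (44.8% and 27.6% of 29), beside 21.1% and 20.8% of all genes. Between PANC-1 and FaDu, 8 were called higher in PANC-1 and 9 lower, beside 20.1% and 18.6% of all genes. Between PANC-1 and PC3, 6 were called higher in PANC-1 and 11 lower, beside 17% and 16.6%. A gene that entered the test through 1 line where it is high had to differ, so these counts describe the set and support nothing. ITGA1 is counted between PANC-1 and FaDu although it was above background in neither, and no fold is given for it there. The median difference of the tested genes was 0.77 for PC3 minus FaDu, -0.20 for PANC-1 minus FaDu and -0.18 for PANC-1 minus PC3, beside -0.12, -0.05 and 0.07 over all genes. ITGA2B was at 43.7 and 50.7 in PC3, at least 1.99-fold above FaDu, and ITGAE differed by less than 2-fold between all lines. ITGA4, ITGA8, ITGA9, ITGA11, ITGAL and ITGAM were not tested. ITGA9, a tenascin receptor subunit, was above background in 3 of the 8 mock channels, at 20.9 and 24.2 in PC3 and 19.8 in PANC-1, and ITGA11, ITGAL and ITGAM each in 1. ITGAL had its only signal on the PC3 miR-99a-3p array, at 154 in Cy3 and 151 in Cy5 on 1 spot, and was at most 9.22 in Cy3 on the others, the paired miR-100-3p array included.

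Few of the genes were past 2-fold in any transfection. Over the 8 arrays, 4 values were lower and 7 higher by at least 2-fold with both channels above background, from 10 genes. With miR-99a-3p in FaDu, 1 of 23 genes was lower and 4 were higher, beside 5.48% and 7.68% of all genes on that array. With miR-99a-3p in PC3, 1 of 26 was lower and 2 higher, beside 3.99% and 4.18%. With miR-150-3p in PC3, 2 of 24 were lower and none higher, beside 2.28% and 2.62%. With si-FOXQ1-2 in PANC-1, 1 of 21 was higher and none lower, beside 0.344% and 0.374%. No gene of the set passed 2-fold with miR-99a-5p in FaDu (0.165% of all genes lower and 0.894% higher), miR-150-5p in PC3 (0.783% and 0.63%), miR-100-3p in PC3 (0.334% and 0.944%) or si-FOXQ1-1 in PANC-1 (0.366% and 0.883%). The median log2 ratio of the set was between -0.17 (PC3 miR-100-3p) and 0.28 (PC3 miR-99a-3p), beside 0.00 to 0.07 over all genes. With 1 array per condition these are descriptions, with no test.

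**Figure D2:**
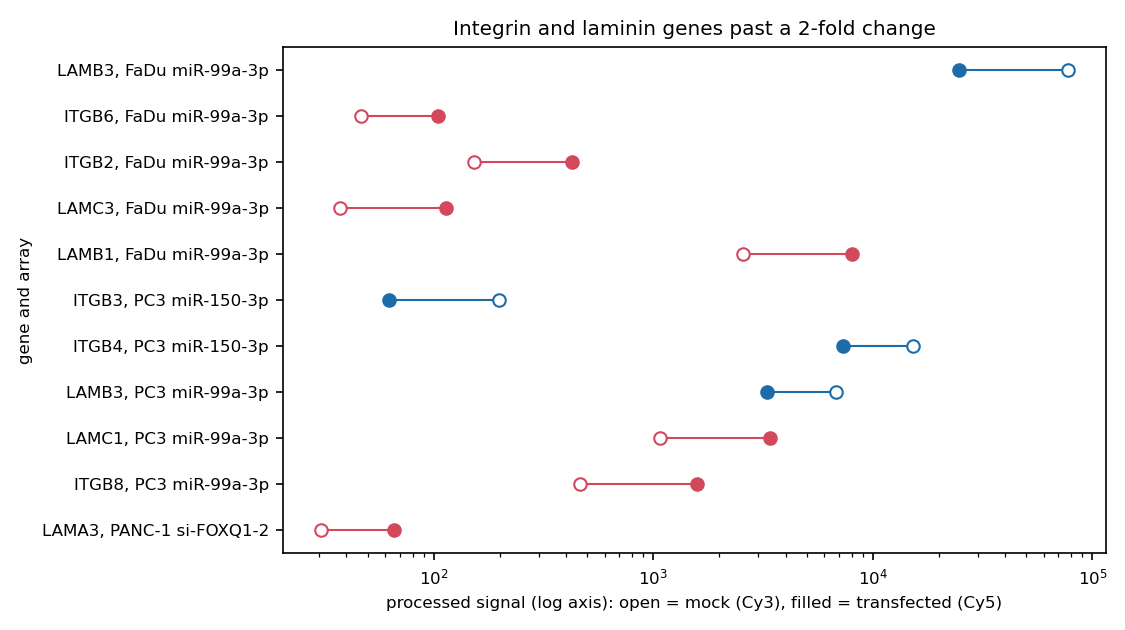
Processed signals (log axis) of the 11 values past 2-fold in both channels, from mock cells in Cy3 (open) to transfected cells in Cy5 (filled), with higher values in red and lower ones in blue. ITGB4 starts from 15165, whereas ITGB6, LAMC3 and LAMA3 start from 46.6, 37.3 and 30.5.

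LAMB3 was lower with miR-99a-3p in both lines that received it. In FaDu, its Cy3 signal was 77584 and its Cy5 signal 24582, a log2 ratio of -1.66 ± 0.25, and in PC3 the signals were 6764 and 3286, a log2 ratio of -1.04 ± 0.23. The other arrays had -0.42 (FaDu miR-99a-5p), -0.18 (PC3 miR-150-5p), -0.37 (PC3 miR-150-3p), -0.39 (PC3 miR-100-3p), 0.05 (si-FOXQ1-1) and 0.34 (si-FOXQ1-2). No other gene of the set was past 2-fold on both miR-99a-3p arrays, and its partner chain LAMA3 had 0.11 in FaDu and -0.18 in PC3. A second, dimmer LAMA3 probe had 1.03 in PC3, from 997 to 2033, so that the value of LAMA3 there depends on the probe. On the FaDu array with miR-99a-3p, KRT5, KRT14 and DSG3 of the 4 squamous markers were also past 2-fold lower, at -1.17, -1.66 and -1.94, with TP63 at -0.78. Their part in the laminin values was not tested.

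In FaDu with miR-99a-3p, other laminin chains were higher. LAMB1 went from 2548 in Cy3 to 8069 in Cy5, a log2 ratio of 1.66 ± 0.25, and miR-99a-5p had 0.51 ± 0.21 in the same line. LAMC3 had 37.3 and 113, a log2 ratio of 1.60 ± 0.39 close to background. Its second probe had 0.40, and its Cy3 signal on that array, 162, compares with 7.06 on the paired FaDu array, counted as the same mock preparation. ITGB2 had 153 and 428 (1.49 ± 0.26) and 0.23 at its second probe, which was not above background in PC3 or PANC-1. ITGB6 had 46.6 and 105 (1.17 ± 0.35), and ITGA1 was above background in Cy5 alone, at 61.8, at least 2.06-fold higher than mock. ITGB5, LAMA2, ITGA10 and ITGAX lay under the limit, at 0.93, 0.82, 0.88 and 0.79. The LAMB1 value is from the RefSeq probe in the coding region near the 3′ end (hg19 chr7:107564411-107564470, minus strand), shown here because the dimmer Ensembl probe had only 0.27 on the same array.
LAMB1 RefSeq probe: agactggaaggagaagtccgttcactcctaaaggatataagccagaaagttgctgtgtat

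In PC3 with miR-99a-3p, ITGB8 and LAMC1 were the genes past 2-fold higher. ITGB8, whose dimer with ITGAV activates TGF-beta, went from 462 to 1588, a log2 ratio of 1.78 ± 0.26. In the same line, miR-100-3p had -0.44, miR-150-3p 0.44 and miR-150-5p 0.20. FaDu with miR-99a-3p had 0.52 ± 0.33. LAMC1 went from 1076 to 3386 (1.65 ± 0.25). Its value was 0.79 with miR-150-5p, 0.47 with miR-100-3p and 0.11 with miR-150-3p in PC3, and 0.32 with miR-99a-3p in FaDu. ITGB1 and ITGA5, the subunits of the fibronectin receptor, were just under the limit at 0.99 ± 0.22 and 0.95 ± 0.22. For ITGB1, printed at 10 spots, the SD over spots was 0.040. On the same array, the 5 epithelial markers had a median of -0.57, with KRT19 at -1.06 and EPCAM at -0.65. The 3 mesenchymal markers had a median of 0.39, and only COL1A1, at 2.84, was past 2-fold. The part of these markers was not tested.

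miR-99a-3p and miR-100-3p, whose seeds differ at 1 base, were read in PC3 against the same mock preparation. Values are given side by side without a test. ITGB1 had 0.99 with miR-99a-3p and -0.83 ± 0.22 with miR-100-3p, with signals of 3468 and 6869 on the first array and 2233 and 1253 on the second. ITGB8 had 1.78 and -0.44, ITGA7 0.79 and -0.40, and LAMB2 0.29 and -0.38. LAMC1, at 1.65 and 0.47, and LAMA4, at 0.83 and 0.75, were above 0 on both, and LAMB3, at -1.04 and -0.39, below 0 on both.

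In PC3 with miR-150-3p, ITGB3 and ITGB4 were past 2-fold lower. ITGB3, the beta subunit of the vitronectin and platelet fibrinogen receptors, went from 198 to 62.4, a log2 ratio of -1.67 ± 0.29. ITGB4 went from 15165 to 7295 (-1.06 ± 0.23). The opposite arm, miR-150-5p, against the same mock preparation, had -0.64 ± 0.23 for ITGB3 and 0.57 ± 0.21 for ITGB4. ITGAV and ITGA10 were just under the limit with miR-150-3p, at 0.88 and 0.84, and LAMC3 had -0.79. With miR-150-5p, LAMA4 at 0.99 ± 0.22 and LAMC1 at 0.79 were highest, and ITGA1 at -0.76 was lowest. LAMB2, read by 2 probes, had 0.53 and 0.48 with miR-150-3p, and its probes had the same sign on all 8 arrays.

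In PANC-1, LAMA3 was past 2-fold higher with si-FOXQ1-2, from 30.5 to 65.6 (1.10 ± 0.36), and had 0.40 ± 0.42 with si-FOXQ1-1, from 33.6 to 44.3, both close to background. ITGAM was above background in Cy5 alone with si-FOXQ1-2, at 50.4, at least 3.36-fold higher than mock, and in Cy3 alone, at 38.0, with si-FOXQ1-1. Its Cy3 signal with si-FOXQ1-2 was 14.0, although both arrays were counted as 1 mock preparation, so that this bound depends on the mock reading. With si-FOXQ1-1 and si-FOXQ1-2, ITGB3 had -0.66 and -0.60, ITGB4 -0.39 and -0.60, and ITGA3 -0.49 and -0.38, all below 0 beyond their spot error. LAMC1 had -0.57 and 0.27, of opposite sign on the 2 arrays, and ITGA10 had 0.07 and -0.78. ITGB8 was above background in Cy3 alone on both, at 37.2 and 51.3. In FaDu with miR-99a-5p, the measured values lay between -0.48 (ITGB7) and 0.78 (ITGB2).

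**Figure D3:**
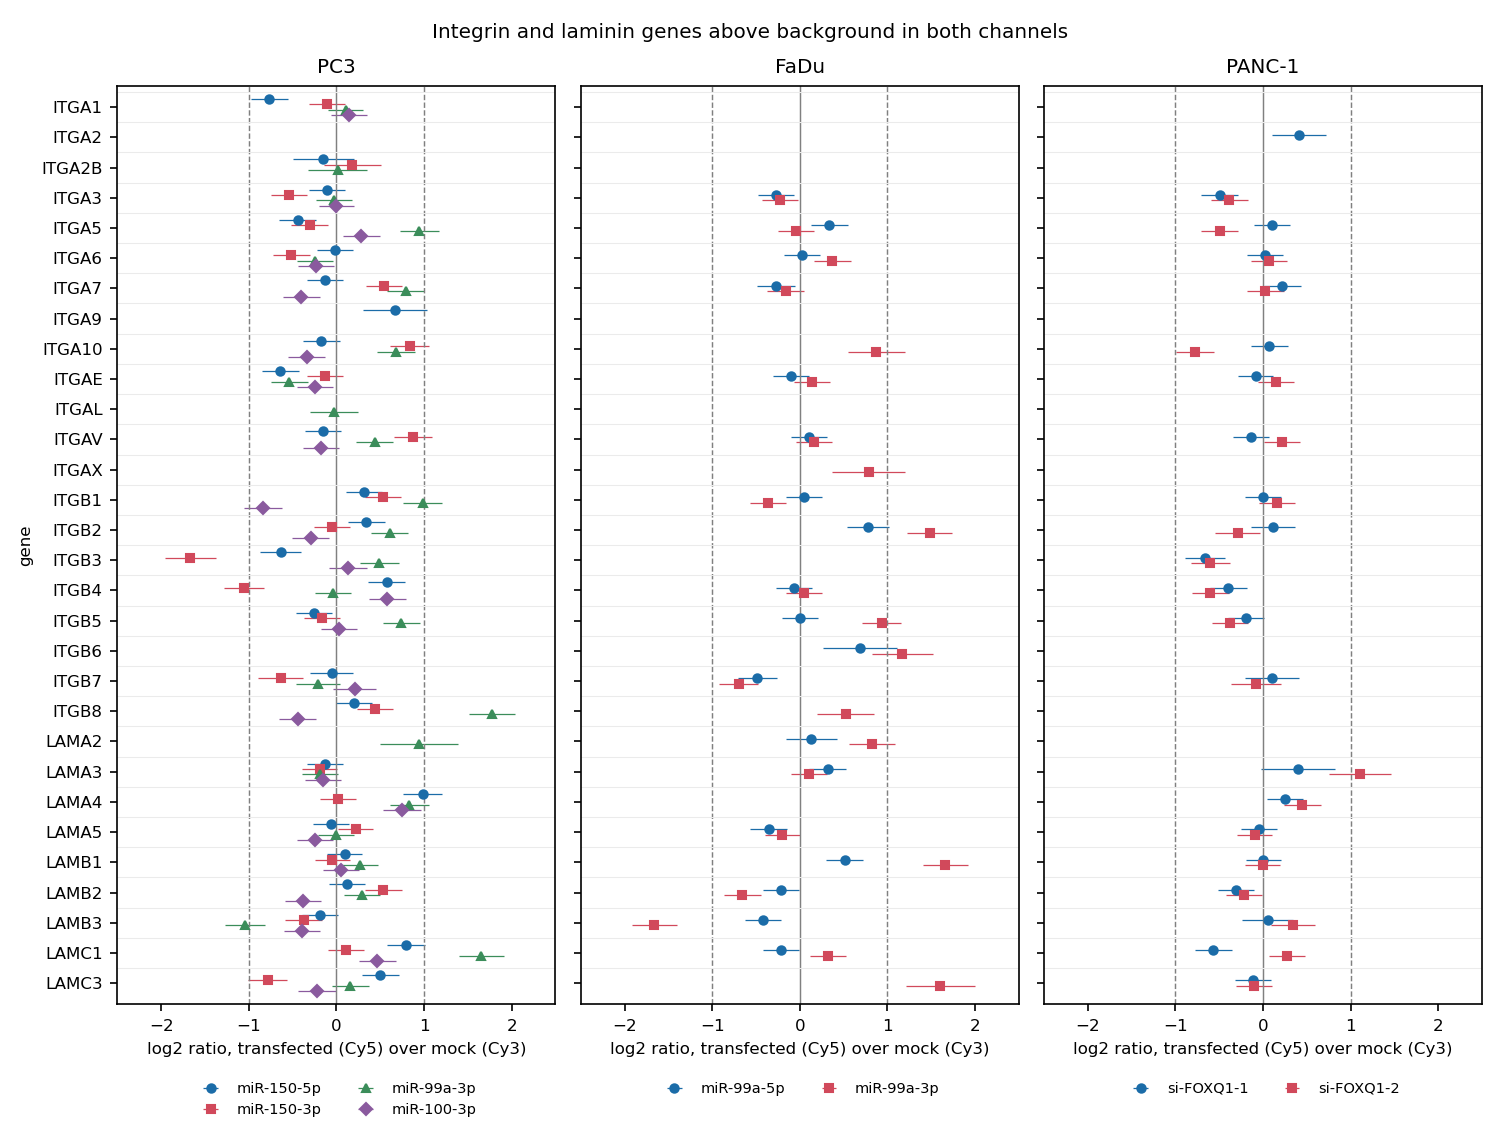
Log2 ratio of transfected (Cy5) over mock (Cy3) cells for the 30 genes above background in both channels of at least 1 array, by line and array, with bars for the spot error and dashed lines at 2-fold. Most points lie between the dashed lines, with LAMB3 at -1.66 and LAMB1 at 1.66 in FaDu, and ITGB3 at -1.67 and ITGB8 at 1.78 in PC3, outside them.

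LAMA4, the laminin alpha chain of blood vessel and fat basement membranes, was read by 4 probes that did not give the same value. The brightest lay at the 5′ end of the gene and was annotated to transcript variants that the others were not. Probes 2 and 3 from the 5′ end are shown because they lie in the coding region (hg19 chr6:112537570-112537629 and chr6:112506440-112506499, minus strand).
LAMA4 probe 2: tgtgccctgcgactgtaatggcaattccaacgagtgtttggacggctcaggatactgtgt
LAMA4 probe 3: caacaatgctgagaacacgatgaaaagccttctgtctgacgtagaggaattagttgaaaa
In PC3 with miR-99a-3p, the log2 ratios were 0.83 ± 0.22 at the brightest probe, 1.85 at the second and 1.80 at the next. With miR-150-5p they were 0.99, 1.20 and 1.37, and with miR-100-3p 0.75, 0.85 and 1.39. With miR-150-3p they were 0.02, -0.57 and -1.02, so that the third probe was past 2-fold lower where the brightest had no difference beyond its error. The fourth probe, at the 3′ end, was near background, with both channels above it only in FaDu with miR-99a-5p, at 0.99. In PC3 with miR-99a-3p it was above background in Cy3 alone, at least 1.27-fold lower, opposite in direction to the other probes, and with miR-100-3p in Cy5 alone, at least 3.07-fold higher. Its scaled Cy3 signal was 38.8 on the miR-99a-3p array and 13.7, not above background, on the miR-100-3p array. These arrays were counted as 1 mock preparation, so that both bounds depend on the mock reading. At either coding probe LAMA4 would count as past 2-fold with miR-99a-3p and miR-150-5p.

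**Figure D4:**
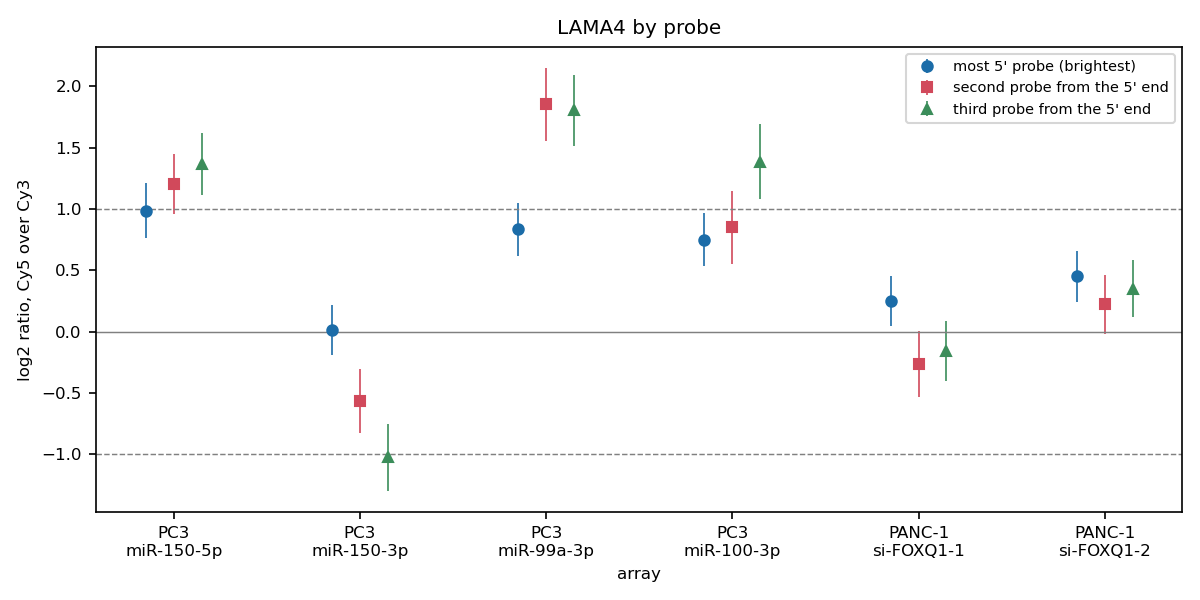
Log2 ratio of LAMA4 at 3 of its probes on the 6 PC3 and PANC-1 arrays (bars, spot error; dashed lines, 2-fold), for the most 5′ probe, which is the brightest, and the 2 coding probes. With miR-99a-3p the last 2 lie at 1.85 and 1.80 against 0.83 for the brightest.

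Genes that work with integrins and laminins were read from 5 lists. Of 13 basement membrane genes, 4 of 11 measured were past 2-fold higher in FaDu with miR-99a-3p, COL18A1 (1.73), COL4A1 (1.48), COL4A2 (2.23) and COL4A6 (1.19), and none lower, beside 7.68% and 5.48% of all genes on that array. In PC3 with miR-99a-3p, 5 of 13 were higher, COL4A1 (1.39), COL4A2 (1.46), COL4A5 (1.02), COL7A1 (1.22) and SPARC (1.37), and none lower, beside 4.18% and 3.99% of all genes. The median of the list was 0.43 and 0.94 on these arrays, beside 0.03 and 0.07 over all genes. COL4A1 and COL4A2 encode the chains of the common collagen of basement membranes. Other basement membrane genes past 2-fold higher were SPARC with miR-150-3p (1.12), COL4A1 with si-FOXQ1-1 (1.05 ± 0.37) and NID1 with si-FOXQ1-2 (1.10). These were 1 of 13, 1 of 11 and 1 of 12 measured, beside 2.62%, 0.883% and 0.344% of all genes higher. With si-FOXQ1-1, COL4A1 went from 24.2 to 50.1, close to background. NID1 links laminin to collagen.

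Of 26 focal adhesion and integrin activation genes, FERMT1, a kindlin that activates integrins, was past 2-fold lower in PC3 with miR-150-3p (-1.54) and miR-99a-3p (-1.26), as was TNS4, a tensin (-1.36 and -1.20). These were 2 of 24 measured genes on each array, beside 2.28% and 3.99% of all genes lower. In FaDu with miR-99a-3p, LIMS1 was lower (-1.03) and FERMT2 and TNS3 were higher (1.06 and 1.20), of 25 measured, beside 5.48% and 7.68% of all genes. TNS1 with miR-100-3p (1.02 ± 0.42) and TNS4 with si-FOXQ1-1 (1.73 ± 0.31) were higher. They were 1 of 25 and 1 of 24 measured, beside 0.944% and 0.883% of all genes higher. TNS1 went from 22.3 to 45.3, close to background. The list's median was -0.39 with miR-150-3p and -0.23 with miR-99a-3p in PC3, beside 0.03 and 0.07 over all genes. Of 4 hemidesmosome genes, PLEC, the linker between ITGB4 and keratin, was lower with miR-150-3p in PC3 (-1.04) and with miR-99a-3p in FaDu (-1.52). It was 1 of 3 and 1 of 4 measured, beside 2.28% and 5.48% of all genes lower. Of 17 genes listed as other integrin ligands, TNC was lower in PC3 with miR-150-5p (-1.63), 1 of 13 measured, beside 0.783% of all genes. In FaDu with miR-99a-3p, TNC (-1.26) and CTGF (-1.04) were lower, and NPNT and EDIL3 higher (1.94 ± 0.36 and 1.03 ± 0.41). These were 2 lower and 2 higher of 10 measured, beside 5.48% and 7.68% of all genes. NPNT and EDIL3 started close to background, at 42.0 and 35.8 in Cy3. TGFB2 was higher with miR-150-3p (1.01 ± 0.28), miR-100-3p (1.00 ± 0.46) and si-FOXQ1-2 (1.07 ± 0.25). It was 1 of 12, 1 of 12 and 1 of 9 genes of this list measured, beside 2.62%, 0.944% and 0.344% of all genes higher. Whether TGFB2 acts as an integrin ligand was not tested. With miR-100-3p, TGFB2 went from 21.4 to 42.9, close to background. Of 5 other laminin receptors, 4 had a probe, and SDC1 was lower with miR-150-3p (-1.06), 1 of 3 measured, beside 2.28% of all genes.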

How the data were processed

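Gene expression was measured on 8 Agilent arrays of 60-mer probes on 1 slide. The authors' scanner software (Agilent Feature Extraction 10.7.3.1) corrected for background and dye per array and wrote the deposited log10 ratio of Cy5 over Cy3 and the deposited intensity (processed signal) of each channel. The value table of the series held the same log10 ratios. No step scaled the arrays to each other. Array annotation is on hg19.

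Control spots and 81 to 178 flagged spots per array of 60901 were dropped. No spot was saturated. The Cy3 signal was above background at 44.5% to 49.2% of spots and Cy5 at 37.2% to 41.8%, and the number of arrays limits the precision. Spots of a probe were averaged, ratios were turned to log2, and the brightest probe stood for a gene. Where 1 channel was not above background, a bound was set against the higher of the lowest signal above background on that array and the probe's own. All genes were tested between mock lines with limma 3.58.1 (R 4.3.3, lmFit and eBayes with trend) on log2 Cy3 signal less the 75th percentile, after mock channels of a line with a robust SD of their difference under 0.1 were averaged. Merging them was decided after the data were seen, in place of the planned 8 samples. This left 1 residual degree of freedom, and the fit was tested on simulated data. Ratios got no test. Python 3.11.15 (numpy 2.4.6, pandas 2.3.3) did the rest.

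Genes are named where both channels were above background and the ratio passed 2-fold, where a bound did, or where mock lines differed by at least 4-fold. The genes and lists were chosen with earlier results of these data known. Symbols of all 35 genes were found in RefSeq (GRCh38.p14), whose gene coordinates were not used. Alternatives were normexp (offset 50) with loess, quantile normalization, other filters, probes, controls and thresholds, flagged spots kept, and each mock channel left out. Some marker genes and 1 probe sequence are not reported here.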

Additional observations from a re-analysis of the deposited data

Results flagged for a closer look

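Among the 21 genes measured in both channels of both miR-99a-3p arrays, 3 had log2 ratios of opposite sign in FaDu and PC3 that each lay beyond the spot error. ITGB1 had -0.36 in FaDu and 0.99 in PC3, LAMB2 had -0.65 and 0.29, and ITGA6 had 0.37 and -0.24. With 1 array per line the difference was not tested. The second probe of LAMB2 gave -0.54 and 0.33. The second probe of ITGA6 gave -0.46 in FaDu, so that its sign there depends on the probe. Outlying samples were not looked for, since no line had more than 2 mock preparations.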

How the results depend on the processing

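The 4 lower and 7 higher values past 2-fold, over all arrays, depended on the filter, the control and the limit. With 1 channel above background, 9 were lower, with no filter 11 were lower and 16 higher, and with the mean of the mock channels of the line as the control 2 were lower. Normexp with loess left 4 higher. A 1.5-fold limit gave 16 lower and 27 higher, and a 4-fold limit 0 of both. Of the 11 values, ITGB2, ITGB3, ITGB4, ITGB6, LAMA3, LAMB1 and LAMC3 fell under 2-fold under at least 1 alternative, with LAMB1 at 0.97 as the mean over its probes, while none changed sign. LAMB3 on both arrays, LAMC1 and ITGB8 stayed past 2-fold under every alternative of normalization, filter, control and flagged spots, and have 1 probe each, so that no other probe could be tried. The medians of the genes moved by less than the spot error under each alternative. Between PANC-1 and FaDu, 17 genes called became 11 with normexp and 10 with genes above background in all 8 mock channels. The other counts between lines stayed within 1.5 times. Leaving out 1 mock channel gave 21 to 22 genes between PC3 and FaDu, 17 to 18 between PANC-1 and FaDu and 15 to 17 between PANC-1 and PC3. With the 8 channels as 8 samples, an alternative chosen after seeing the data, the counts were 21, 17 and 17. Leaving out a channel leaves its pair in place, and without 1 PC3 preparation no residual remains, so that no such test was made. No paired analysis was possible because transfections have 1 array each and mock channels of different lines share no origin. LAMC3, ITGB6 and LAMA3 had Cy3 signals near background, which limits their ratios.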
